A study of Mus musculus with 7 samples.

Results

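The proteasome genes of CD8 dendritic cells were followed over 7 sorted cell libraries. Genes were taken by name, as genes listed as protein-coding in RefSeq whose mouse symbol begins with Psma, Psmb, Psmc, Psmd or Psme and a digit. This gave 45 genes of the 27179 listed, 44 of which had enough counts to be tested among 10863 genes. The immunoproteasome group was set by name as Psmb8, Psmb9, Psmb10, Psme1 and Psme2, and the other 40 genes were read beside it. Among those 40, Psmc3ip and Psme3ip1 fit the naming rule but encode interaction partners and not subunits. The thymus-specific catalytic subunit gene Psmb11 had no count in any library. A count of 0 allows up to 3 counts, for counting error only.

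All libraries came from C57BL/6 mice, from cells sorted by flow cytometry as CD8 dendritic cells, and total RNA was sequenced. CD103 negative cells (n = 3) and CD103 low cells (n = 2) were untreated, and CD103 high cells (n = 2) carried the label CpG treated. CpG refers to unmethylated DNA motifs sensed through Toll-like receptor 9, and the series concerns CD8 dendritic cells described as paralysed after a systemic inflammatory syndrome. CpG treatment and high CD103 occurred in the same samples and cannot be told apart. The labels date both CpG CD103 high libraries and CD103 negative replicates 1 and 2 to 2012, and CD103 negative replicate 3 and both CD103 low libraries to 2013. Not given in the sources used here were what the dates mark, the tissue, the CpG dose, the interval between treatment and sorting, and whether animals were pooled. The design text calls the samples biological replicates.

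The proteasome degrades ubiquitin-tagged proteins. Its barrel-shaped core has rings of alpha subunits around rings of beta subunits, of which a few beta subunits carry the catalytic sites, and a regulatory particle made of a base and a lid binds, unfolds and feeds in the substrate. In cells exposed to interferon, and in many immune cells at rest, the catalytic subunits encoded by Psmb6, Psmb7 and Psmb5 are replaced by those encoded by Psmb9, Psmb10 and Psmb8 to form the immunoproteasome, whose peptides are loaded on MHC class I. Psme1 and Psme2 encode the alpha and beta subunits of the PA28 activator, which opens the core and is also raised by interferon.

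Total counts ran from 4474211 to 4629181 per library, so a CPM (counts per 1000000 counts, on library sizes scaled by trimmed mean of M-values) stands for about 4.47 to 4.63 reads before scaling. Itgae, which encodes CD103, followed the sort, with 54.3 to 62.7 CPM in CD103 negative, 346 and 375 in CD103 low, and 992 and 1019 in CpG CD103 high libraries. The conventional type 1 dendritic cell markers were abundant in every library, with a summed level of 11684 to 13650 CPM in the untreated and 17473 and 17475 CPM in the CpG libraries. Markers of other cells also differed between CpG CD103 high and CD103 negative. Of the erythroid and platelet markers, 6 of 7 tested were higher, and their sum was 53.7 and 46.2 CPM in CpG CD103 high, 5.71 to 7.02 CPM in CD103 negative and 22.3 and 10.1 CPM in CD103 low libraries, with Pf4 at 0 in every untreated library. Of the monocyte and neutrophil markers 3 of 4 tested were higher and 1 lower (summed level 93.6 and 69.3 against 69.2 to 120 CPM, Mmp9 at 0 throughout). Of the B cell markers 3 of 4 were lower (82.3 and 85.4 against 144 to 169 CPM, Cd79a at 0 in the CpG libraries, in CD103 negative replicates 1 and 2 and in CD103 low replicate 1), and of the conventional type 2 dendritic cell markers 4 of 7 were lower (47.3 and 36.3 against 78.0 to 153 CPM). Of the plasmacytoid dendritic cell markers 2 of 7 were higher, Irf7 and Pacsin1, and 2 lower, Tcf4 and Spib. The summed level of this list was 548 and 493 against 310 to 390 CPM. Irf7 alone took 321 and 290 against 126 to 172 CPM of it, while Tcf4 had 12.0 and 14.3 against 29.2 to 64.1 CPM. Of the macrophage markers 1 of 7 was higher and 2 lower (377 and 473 against 131 to 204 CPM). Heat-shock genes were lower in 6 of 9 (893 and 778 against 1624 to 3711 CPM) and cell cycle genes in 6 of 12 (1115 and 1626 against 1577 to 2166 CPM). The part of these differences in the results below was not tested. In bulk libraries fewer cells of a type and less RNA per cell cannot be told apart.

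Proteasome genes made up 0.517% to 0.640% of the counts of a library. Their summed level was 6003, 6237 and 5125 CPM in CD103 negative replicates 1 to 3, 5373 and 5332 CPM in CD103 low, and 6052 and 5690 CPM in CpG CD103 high libraries. The 3 libraries dated 2013 were the lowest, and CpG CD103 high lay between the CD103 negative libraries. The 5 immunoproteasome genes took a summed 1902, 1914 and 1559 CPM in CD103 negative, 1781 and 1753 CPM in CD103 low, and 2089 and 2059 CPM in CpG CD103 high libraries. Here both CpG libraries lay above all untreated ones. Of the 5 genes only Psmb9 did so by itself, at 522 and 549 CPM against 301 to 402 CPM in the untreated libraries.

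Compared per length, as RPKM (CPM per kilobase of gene model), 3 immunoproteasome genes led the 44 tested genes. Averaged over the 7 libraries the level was 631 RPKM for Psme1, 556 RPKM for Psmb8 and 520 RPKM for Psmb9, and the next was Psmb1, a non-catalytic beta subunit gene, at 277 RPKM. The inducible genes were thus already among the most abundant in untreated cells: in the CD103 negative group Psmb8 had 564 RPKM against 45.3 RPKM for its counterpart Psmb5, and Psmb9 had 447 RPKM against 102 RPKM for Psmb6. Psmb10, at 94.1 RPKM against 135 RPKM for Psmb7, was the exception. The group means of these 6 genes in CpG CD103 high libraries were 597, 44.9, 665, 99.7, 97.7 and 122 RPKM in the same order. Among them Psmb5 shares much of its sequence with other genes, as set out below, so its level and its contrast with Psmb8 are uncertain.

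Part of the sequence of some genes is shared with other genes. Over the 44 tested genes, which share their libraries, the share and the mean level had a Spearman rho of -0.199, given as a description. Of the 50-base windows of the gene's GENCODE M21 transcripts, the share also found in a transcript of another gene was 55.4% for Psma5, 55.8% for Psmb3, 54.9% for Psme2 and 54.1% for Psmb5. The shared windows lay mostly in pseudogenes and, for Psme2, in its copy Psme2b. GENCODE M21 lists Psme2b as protein-coding, but it was not among the genes taken by name. The 4 genes Psma5, Psmb3, Psme2 and Psmb5 had a median of 25.4 RPKM, from 1.82 RPKM for Psma5 to 39.5 RPKM for Psmb5. The 13 genes with 5% to 50% of windows shared had a median of 59.8 RPKM, and the 27 genes under 5% had 56.6 RPKM. Psme2 stood at 35.4 RPKM although its protein partner gene Psme1 stood at 631 RPKM. With the treatment of reads that fit several places not given in the sources used here, levels of these 4 genes are uncertain and the part of shared sequence in them was not tested. Psmb10 shared none of its windows and Psmb6 shared 2.67%, whereas Psmb9 shared 9.71% with Tap1 and Psmb8 5.51% with the antisense gene Gm20496. Psmb7, the counterpart of Psmb10, shared 28.1% with Nek6. Genes with little or no shared sequence were also low: Psma8, a testis-enriched alpha subunit gene, stood at 1.90 RPKM with 0% shared, Psmd9 at 6.34 RPKM with 0.644%, Psmd10 at 14.6 RPKM with 0% and Psme4 at 18.3 RPKM with 0%. These genes were singled out after their values were seen.

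**Figure D1:**
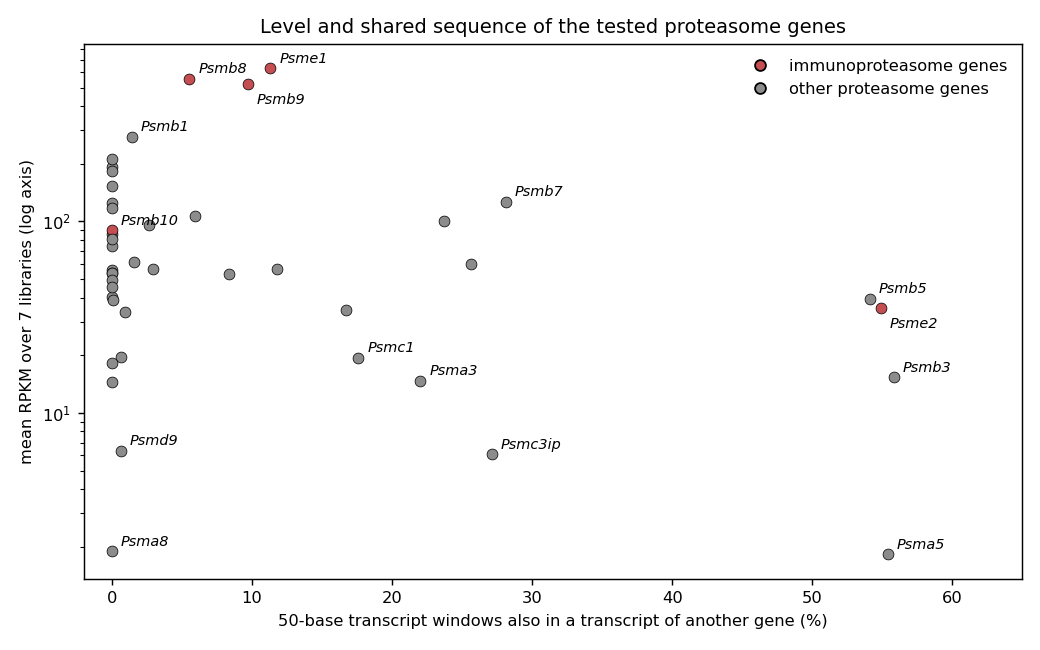
Mean level over 7 libraries (RPKM, log axis) of each of the 44 tested genes against the percentage of its 50-base transcript windows found in another gene's transcript, with 1 point per gene. Psme1, Psmb8 and Psmb9 sit at the top, while Psme2, Psmb5, Psmb3 and Psma5, with more than 50% of windows shared, lie at 39.5 RPKM or less.

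The first comparison asked how the proteasome genes of CpG CD103 high cells differed from those of untreated CD103 negative cells. Of the 44 tested genes Psmb9 rose and 6 others fell, that is 2.27% higher and 13.6% lower, where 14.5% of all genes tested were called higher and 11.8% lower. The share of lower calls was near that background and the share of higher calls was below it. The fitted change was negative for 34 of the 44 genes, with a median log2 fold change of -0.16, against -0.01 over all genes tested. Of all 10863 genes tested it was negative for 5493. The level of Psmb9, which encodes the inducible counterpart of the subunit of Psmb6, was 522 and 549 CPM in CpG CD103 high, against 379, 402 and 301 CPM in CD103 negative replicates 1 to 3. Both CpG libraries were above all CD103 negative libraries and also above the 389 and 393 CPM of CD103 low. The log2 fold change was 0.46 (SE 0.081, 95% interval 0.27 to 0.64), a 1.37-fold rise, with an adjusted p of 0.00305 in edgeR's quasi-likelihood test. Over 17 alternative settings the log2 fold change stayed between 0.41 and 0.57 and the adjusted p between 0.000576 and 0.0264.

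The other inducible catalytic genes did not pass the test. Psmb8, which encodes the inducible chymotrypsin-like subunit, had 732 and 729 CPM in CpG CD103 high libraries against 746, 765 and 558 CPM in CD103 negative. The CpG values fell inside the CD103 negative range, and the log2 fold change was -0.05 (95% interval -0.24 to 0.14, edgeR adjusted p 0.705). Psmb10, which encodes the inducible trypsin-like subunit, had 130 and 119 CPM against 127, 128 and 103 CPM, with a log2 fold change of -0.04 (95% interval -0.25 to 0.16, edgeR adjusted p 0.764). For both, the interval ended below the 0.46 fitted for Psmb9. The activator genes were also not called. Psme1 had 668 and 628 CPM against 613, 587 and 567 CPM, so that the groups did not overlap, but its log2 fold change of 0.11 had an interval of -0.07 to 0.30 (edgeR adjusted p 0.357). Psme2 had 37.5 and 34.7 CPM against 37.5, 30.6 and 30.4 CPM, a log2 fold change of 0.08 (95% interval -0.24 to 0.41, edgeR adjusted p 0.701). Of the 5 immunoproteasome genes 1 was thus called higher and 0 lower, also at an unadjusted p under 0.05, with a median log2 fold change of 0.08. Of all genes tested 14.5% were called higher and 11.8% lower. At an unadjusted p under 0.05, 2251 of all 10863 genes were higher and 1998 lower. A count of 1 among 5 genes is too small to be told from these shares. The differences between these genes in their response were not tested.

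Psmb9 and Psmb8 lie in the class II region of the MHC on chromosome 17, interleaved with the genes of the peptide transporter that carries proteasome products into the endoplasmic reticulum. In GRCm38.p6 (the mm10 build) Psmb9 spans 34182030 to 34187330 on the minus strand and Psmb8 34198195 to 34201454 on the plus strand, and Tap1 begins 226 bases from the start of Psmb9 on the opposite strand. Tap1 and Tap2 rose as well, with log2 fold changes of 0.83 (SE 0.079, edgeR adjusted p 0.000118) and 0.62 (SE 0.078, edgeR adjusted p 0.000538). Tap1 had 1117 and 1167 CPM in CpG CD103 high, 631, 655 and 633 CPM in CD103 negative, and 768 and 733 CPM in CD103 low libraries. Psmb9 thus rose together with the gene that faces it across a short shared stretch, while Psmb8, with Tap1 on one side and Tap2 on the other, did not pass the test. Without a stated strand setting, reads from the windows that Psmb9 shares with Tap1 cannot be assigned to either gene, and their part in the rise of Psmb9 was not tested.

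The 250 bases before the start of Psmb9, Psmb8 and Psmb5 are shown because the first holds the stretch that faces Tap1, and the others, of an inducible catalytic gene and its constitutive counterpart, each hold a short motif. Sequences are from RefSeq on GRCm38.p6, written 5' to 3' on the strand of the gene, at chr17:34187331-34187580 (minus) for Psmb9, chr17:34197945-34198194 (plus) for Psmb8 and chr14:54617996-54618245 (minus) for Psmb5. Capitals mark, in Psmb9, the 25 bases that begin the Tap1 transcript on the other strand, in Psmb8 a gamma-activated site motif, and in Psmb5 an antioxidant response element core.
Psmb9: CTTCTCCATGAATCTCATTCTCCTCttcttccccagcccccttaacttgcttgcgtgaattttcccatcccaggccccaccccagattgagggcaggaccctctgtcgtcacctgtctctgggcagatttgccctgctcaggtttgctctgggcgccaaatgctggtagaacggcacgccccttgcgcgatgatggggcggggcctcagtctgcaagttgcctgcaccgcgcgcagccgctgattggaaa
Psmb8: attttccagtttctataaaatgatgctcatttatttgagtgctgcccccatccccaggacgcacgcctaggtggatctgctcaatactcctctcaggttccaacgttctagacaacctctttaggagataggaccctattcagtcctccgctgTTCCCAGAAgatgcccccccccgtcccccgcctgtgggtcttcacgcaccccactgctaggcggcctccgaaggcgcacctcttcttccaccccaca
Psmb5: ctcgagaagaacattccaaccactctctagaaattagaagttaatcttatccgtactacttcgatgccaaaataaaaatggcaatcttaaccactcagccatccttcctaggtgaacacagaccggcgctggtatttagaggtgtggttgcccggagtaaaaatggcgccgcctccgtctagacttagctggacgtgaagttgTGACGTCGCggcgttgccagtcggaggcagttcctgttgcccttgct

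Of the 45 genes, 38 had a RefSeq window of 250 bases before to 50 bases after the start, and 3 motifs were searched on both strands. The interferon-stimulated response element core GAAANNGAA was found in 6 of 38, Psmb3, Psmb4, Psmc2, Psmd4, Psmd9 and Psme1, and in 9.76% of all 27025 genes with a window. The gamma-activated site TTCNNNGAA was found in Psmb8 (TTCCCAGAA, first base at -97 from the start) and Psmd2, and in 9.55% of all genes with a window. The antioxidant response element core TGACNNNGC, read by the NRF factors that raise proteasome genes when the proteasome is blocked, was found in 6 of 38, among them Psmb5 (TGACGTCGC at -47) and Psmb6 (TGACGGAGC at -9), and in 14% of all genes with a window. No window of Psmb9 or Psmb10 held any of the 3, which says only that these letters were not in that window.

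Among the 39 tested genes outside the immunoproteasome group 6 fell and 0 rose: 3 of 8 lid genes, 1 alpha ring gene, 1 non-catalytic beta subunit gene and 1 activator gene. Of all genes tested 11.8% were called lower and 14.5% higher, so the share of lower calls was near the background. The classes are too small for their counts to be read against it. Psmd14, which encodes the deubiquitinating enzyme of the lid, had 79.2 and 83.6 CPM in CpG CD103 high against 104, 114 and 95.1 CPM in CD103 negative libraries, and the groups did not overlap. Its log2 fold change was -0.42 (SE 0.097, edgeR adjusted p 0.011). Psme3, the gene of the nuclear PA28 gamma activator, had 185 and 179 CPM against 224, 219 and 212 CPM, again without overlap, with a log2 fold change of -0.29 (SE 0.080, edgeR adjusted p 0.0256). Psma6, an alpha ring gene, had 119 and 98.2 CPM against 141, 137 and 120 CPM, a log2 fold change of -0.35 (SE 0.11, edgeR adjusted p 0.0336). The highest CpG library lay just under the lowest CD103 negative one.

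For the remaining 3 genes the fall held only against the CD103 negative libraries of the same date. The lid gene Psmd6 had 64.1 and 52.2 CPM in CpG CD103 high against 74.7 and 81.1 CPM in CD103 negative replicates 1 and 2, and 62.8 CPM in replicate 3 (log2 fold change -0.42, SE 0.13, edgeR adjusted p 0.0348). Psmb4, a non-catalytic beta subunit gene, had 164 and 180 CPM against 200, 222 and 147 CPM (log2 fold change -0.30, SE 0.092, edgeR adjusted p 0.0366). Psmd8, another lid gene, had 175 and 169 CPM against 204, 205 and 166 CPM (log2 fold change -0.25, SE 0.081, edgeR adjusted p 0.0443). In these genes CD103 negative replicate 3 was within the range of the CpG libraries or below it. The count of 6 depended on the settings: it was 0 with DESeq2 and 0 without the date term, and leaving out CD103 negative replicate 2 also gave 0. The share of all genes called lower fell as well, from 11.8% to 5.6%, 6.92% and 7.73% in that order.

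None of the constitutive catalytic genes and none of the 12 base genes and base assembly chaperone genes was called. Of the constitutive catalytic genes, Psmb5 had 42.8 and 35.4 CPM in CpG CD103 high, 39.5, 49.1 and 29.6 CPM in CD103 negative, and 21.1 and 23.2 CPM in CD103 low libraries. Psmb6 had 116 and 90.3, then 110, 123 and 83.6, then 83.6 and 84.8 CPM in the same order of groups. Psmb7 had 132 and 105, then 133, 148 and 112, then 113 and 116 CPM. In all 3 genes the CpG libraries overlapped the CD103 negative ones, and their log2 fold changes were -0.18 (95% interval -0.52 to 0.16), -0.17 (-0.45 to 0.11) and -0.24 (-0.51 to 0.02). Psme4, which encodes the PA200 activator, had 126 and 115 CPM against 107, 126 and 123 CPM, a log2 fold change of 0.05 (95% interval -0.20 to 0.29).

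The most abundant genes per length of the other classes were also not called. Psmc3, an ATPase of the base, had 197 and 192 CPM against 187, 197 and 150 CPM, a log2 fold change of 0.02 (edgeR adjusted p 0.890). Psmd4, which encodes a ubiquitin receptor of the base, had 124 and 118 CPM against 112, 112 and 90.2 CPM, so that the CpG libraries were above the others, with a log2 fold change of 0.11 (edgeR adjusted p 0.376). Psmd5, which encodes a chaperone of base assembly, had 38.4 and 37.9 CPM against 45.5, 46.8 and 32.6 CPM (log2 fold change -0.27, edgeR adjusted p 0.113). By class, the median log2 fold change was -0.22 for the 8 lid genes, -0.15 for the 8 alpha ring genes, -0.20 for the 4 non-catalytic beta subunit genes and -0.09 for the 6 base ATPases.

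**Figure D2:**
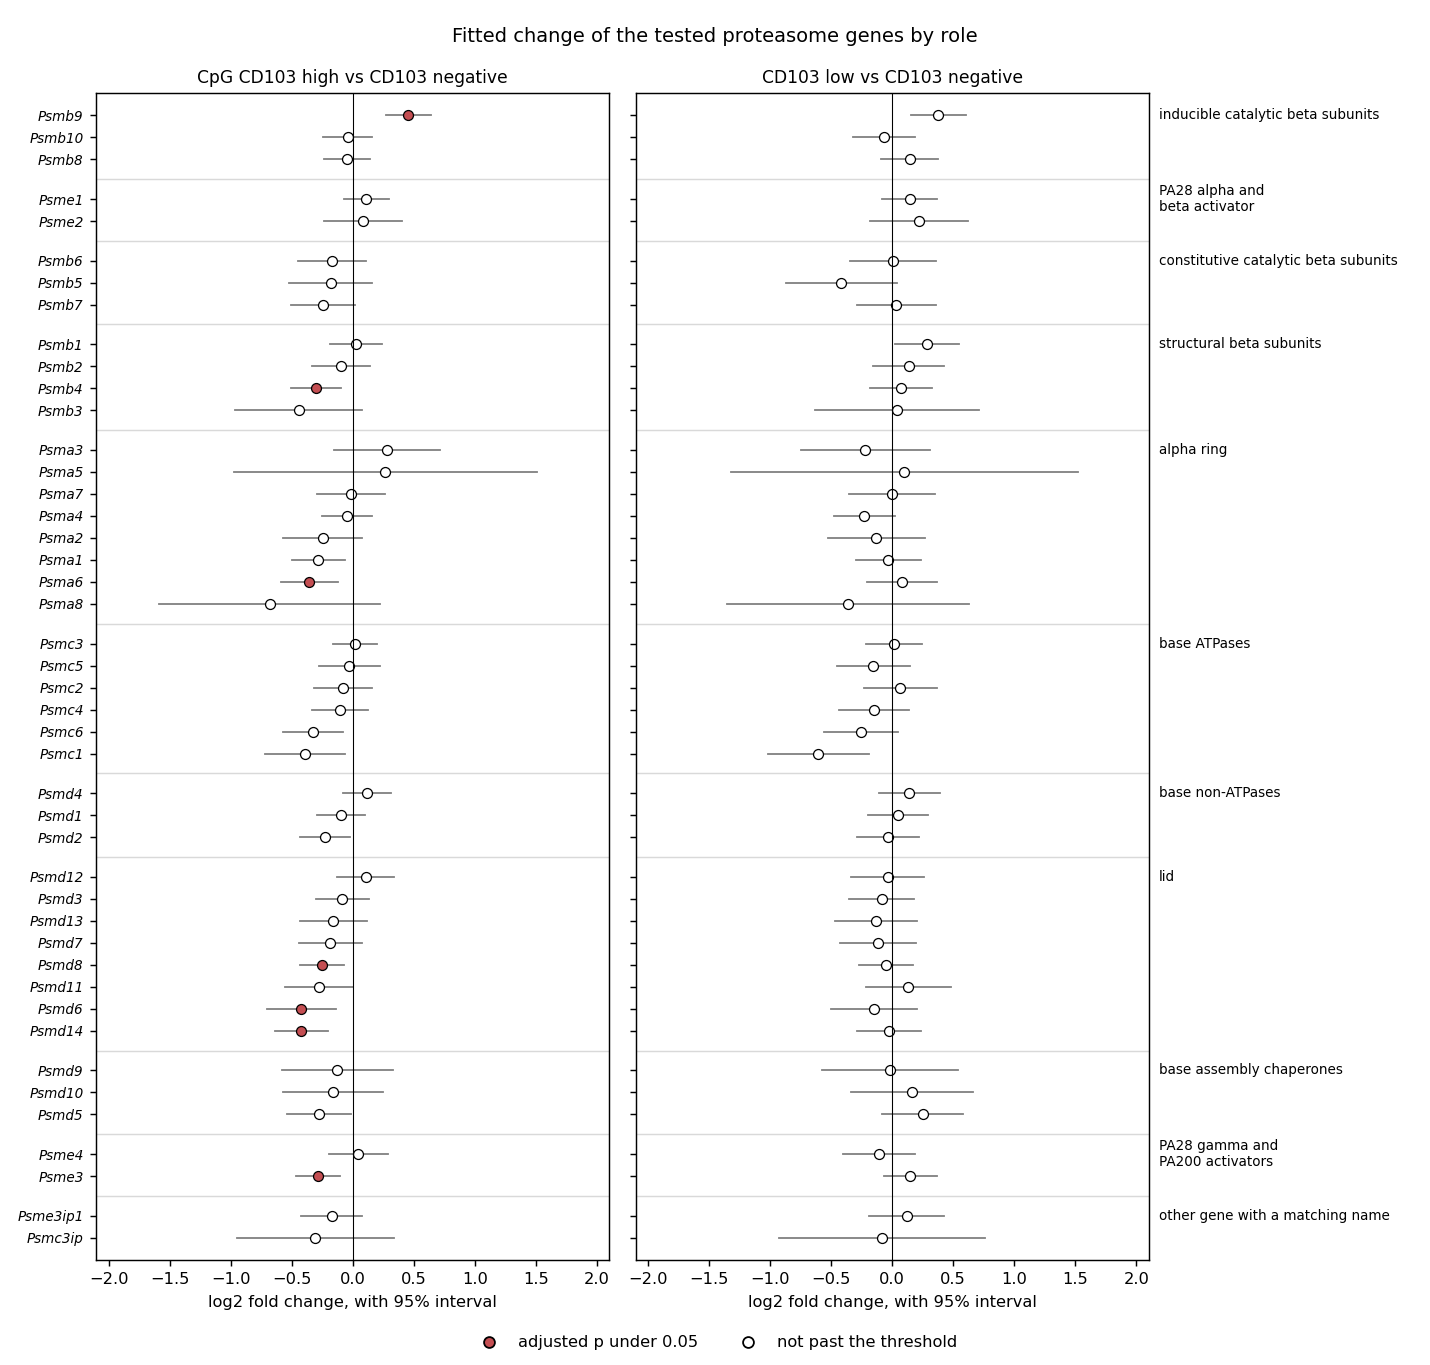
Fitted log2 fold change (horizontal axis) of each of the 44 tested genes, grouped by role, for CpG CD103 high against CD103 negative (left) and CD103 low against CD103 negative (right), with 95% intervals as lines and filled points for an adjusted p under 0.05. On the left Psmb9 is filled to the right of 0 and 6 genes are filled to its left, and on the right no gene is filled.

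The second comparison set CD103 low against CD103 negative cells, both untreated. Of the 44 genes 0 were called higher and 0 lower, where 0.0552% and 0.0829% of all genes tested were called, by edgeR's quasi-likelihood test. DESeq2 and limma voom also called 0 in either direction, although DESeq2 gave no adjusted p for 6318 of the 10863 genes. At an unadjusted p under 0.05 there were 2 higher, Psmb9 and Psmb1, and 1 lower, Psmc1. Of all 10863 genes tested, 482 were higher and 315 lower at that cut-off. The median log2 fold change was -0.01 over the 44 genes and 0.15 over the 5 immunoproteasome genes, against 0.01 over all genes tested.

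With the date as a term, this comparison rests on CD103 negative replicate 3 alone, the only CD103 negative library dated 2013. Psmb9 was at 389 and 393 CPM in CD103 low, above the 301 CPM of that library and within the 379 to 402 CPM of the 2 others. Its fitted log2 fold change was 0.38 (95% interval 0.15 to 0.61, edgeR adjusted p 0.280). Psmc1, which encodes an ATPase of the base, was at 17.9 and 23.0 CPM against 36.2, 38.6 and 31.1 CPM, lower than each CD103 negative library, with a log2 fold change of -0.60 (95% interval -1.02 to -0.19, edgeR adjusted p 0.417), and 17.6% of its windows were shared with other genes. Psmb1 was at 316 and 283 CPM against 292, 284 and 246 CPM (log2 fold change 0.29, edgeR adjusted p 0.614). Psmb5 was also below every CD103 negative library, with a log2 fold change of -0.42 (95% interval -0.87 to 0.04, edgeR adjusted p 0.730). Markers of other cells differed here too. Of the monocyte and neutrophil markers 2 of 4 tested were lower in CD103 low, Ly6c2 (9.76 and 11.3 CPM against 45.8 CPM in CD103 negative replicate 3 and 8.56 and 10.8 CPM in replicates 1 and 2) and Ccr2 (24.3 and 18.4 against 60.2, 66.0 and 73.9 CPM), and their summed level was 37.2 and 30.1 against 69.2 to 120 CPM. Of the plasmacytoid dendritic cell markers 4 of 7 were lower at an unadjusted p under 0.05 and 0 after adjustment (summed level 306 and 324 against 310 to 390 CPM). The summed T cell marker level was 52.4 CPM in CD103 low replicate 2 and at most 11.6 CPM in the other libraries. The part of these markers in the values above was not tested.

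The third comparison, CpG CD103 high against CD103 low, runs between dates through the CD103 negative libraries. Again 0 of 44 genes were called higher and 0 lower by edgeR, where 3.44% and 2.78% of all genes tested were called, and DESeq2 and limma voom called 0 as well. At an unadjusted p under 0.05 there were 0 higher and 5 lower, Psma6, Psmd5, Psmd14, Psme3 and Psmb4. Of all 10863 genes tested, 1357 were higher and 1196 lower at that cut-off, so the share of lower genes was near the background. The lowest adjusted p was 0.0720, for Psme3, with 185 and 179 CPM against 232 and 237 CPM and a log2 fold change of -0.43 (95% interval -0.72 to -0.15). For Psmb9 the fitted difference was 0.08 (95% interval -0.21 to 0.36, edgeR adjusted p 0.757), although its raw levels of 522 and 549 against 389 and 393 CPM did not overlap. The fitted difference of Psmb9 between 2013 and 2012, which the model allows for, was -0.38. This value depended on the date term: without it the difference was 0.45 (edgeR adjusted p 0.0793), and with a replicate block in its place 0.45 (edgeR adjusted p 0.00527). The difference of Psmb9 between CD103 low and CD103 negative was then 0.12 (edgeR adjusted p 0.723) and 0.00 (edgeR adjusted p 0.992), so whether CpG CD103 high differs from CD103 low in Psmb9 depends on how the dates are treated.

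The CD103 negative libraries differed by date. CD103 negative replicate 3 was below both other CD103 negative libraries in 32 of the 44 genes and above both in 4. This was not counted over all genes, so it has no background to be read against. The fitted log2 difference of 2013 from 2012 was negative in 35 of 44 genes, with a median of -0.25 against 0.01 over all genes tested, and 17 genes were lower at an unadjusted p under 0.05. Over all 10863 genes tested the difference was negative in 5280, and 964 were lower at that cut-off. After adjustment 1 was called lower, Psmb4 (log2 fold change -0.52, edgeR adjusted p 0.0391), and 0 higher, where 1.3% of all genes tested were called lower and 2.16% higher. Psmb8 differed by -0.44 (95% interval -0.67 to -0.20) between the dates, and its level in CpG CD103 high differed from the CD103 negative libraries of 2012 by -0.05. Markers of other cells set replicate 3 apart as well: Siglech had 19.2 CPM there against 1.76 and 0.216 CPM in replicates 1 and 2, Cd209a 21.3 against 4.17 and 0.862 CPM, and Ly6c2 45.8 against 8.56 and 10.8 CPM. Of the tested markers, 2 of 7 of conventional type 2 dendritic cells, 2 of 7 of plasmacytoid dendritic cells and 1 of 4 of monocytes and neutrophils were higher in 2013, and 6 of 10 listed in each of the first 2 lists were highest in this library. Their part in the proteasome values was not tested. This date difference rests on 1 library, so the date and that library cannot be told apart.

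**Figure D3:**
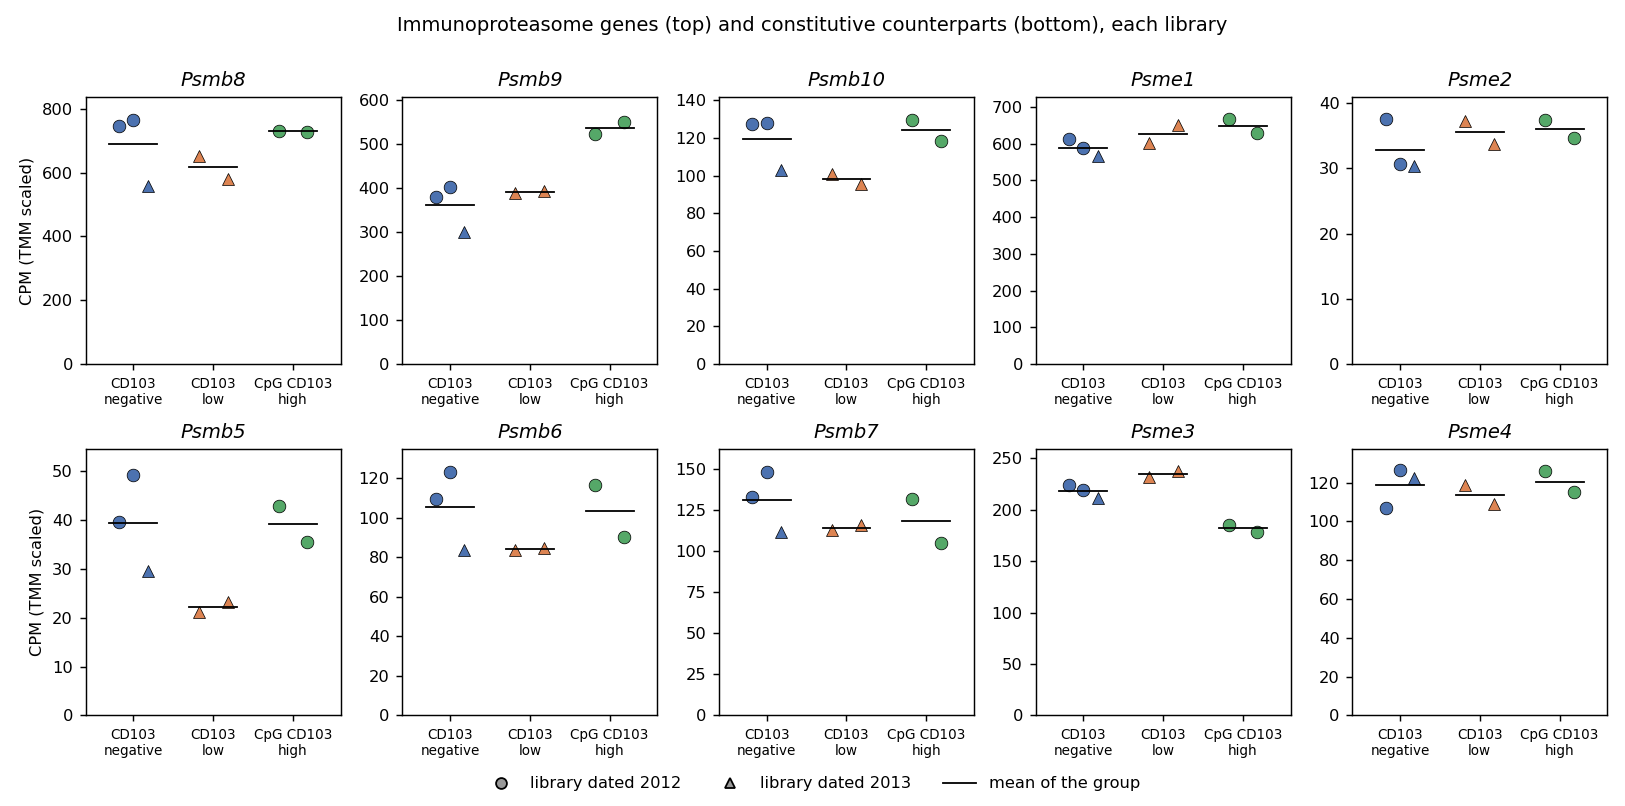
Level in each library (CPM, linear axes from 0) of the 5 immunoproteasome genes (top) and of 5 constitutive genes (bottom), with circles for libraries dated 2012, triangles for 2013 and lines for group means. Psmb9 is the top-row gene in which the CpG libraries (522 and 549 CPM) stand well clear of all others, and Psme3 is lowest in the CpG libraries (185 and 179 CPM).

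Ratios within a library do not depend on library scaling, so each inducible catalytic gene was set against the gene of the subunit it replaces. Per length, the ratio of Psmb9 to Psmb6 was 4.44, 4.21 and 4.62 in CD103 negative, 5.98 and 5.95 in CD103 low, and 5.77 and 7.82 in CpG CD103 high libraries. Every CD103 low and CpG library was thus above every CD103 negative one. The mean log2 ratio of counts was higher by 0.60 in CpG CD103 high than in CD103 negative libraries (exact two-sided permutation test p = 0.1, the smallest that 2 against 3 samples allow, 0.15 adjusted over 3 pairs). The same difference for CD103 low was 0.43 (exact permutation p = 0.1). The permutation tests of these ratios did not allow for the date. Against CD103 negative libraries of the same date the difference was 0.64 for CpG CD103 high. For CD103 low it was 0.37, against 1 library.

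The ratio of Psmb8 to Psmb5 per length was 13.4, 11.1 and 13.4 in CD103 negative, 22.1 and 17.8 in CD103 low, and 12.2 and 14.7 in CpG CD103 high libraries, so that CD103 low stood apart and CpG did not. Its log2 difference from CD103 negative was 0.08 for CpG CD103 high (exact permutation p = 0.7) and 0.65 for CD103 low (exact permutation p = 0.1), where Psmb5 is the gene with 54.1% of windows shared. Within a date these differences were 0.13 and 0.56. The ratio of Psmb10 to Psmb7 was 0.732, 0.660 and 0.702 in CD103 negative, 0.682 and 0.628 in CD103 low, and 0.749 and 0.859 in CpG CD103 high libraries, a log2 difference of 0.20 for CpG (exact permutation p = 0.1, 0.15 adjusted over 3 pairs). Here too both CpG libraries were above all CD103 negative ones, where Psmb7 is a gene with 28.1% of windows shared. Within the 2012 libraries the CpG difference of this pair was 0.21. The pairs were not tested against each other.

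**Figure D4:**
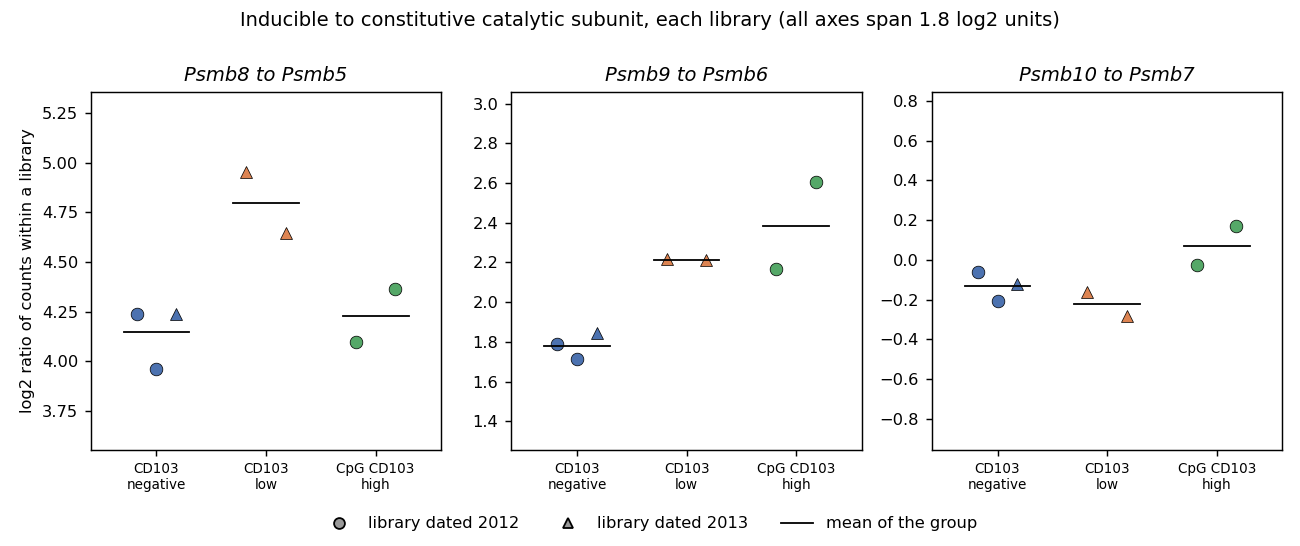
Log2 ratio of counts of the inducible to the constitutive catalytic gene in each library, by group, with circles for 2012, triangles for 2013 and lines for group means. Both the CpG CD103 high and the CD103 low libraries lie above all CD103 negative ones for Psmb9 to Psmb6, and CD103 low alone does so for Psmb8 to Psmb5.

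Genes around the proteasome, taken from lists by function, were read in the same fit for CpG CD103 high against CD103 negative. Of 12 tested assembly factors and associated proteins 2 fell and 0 rose. Pomp, the chaperone that assembles the core and is needed for the immunoproteasome, had 198 and 192 CPM in CpG CD103 high, 289, 271 and 202 CPM in CD103 negative, and 195 and 203 CPM in CD103 low libraries. Its log2 fold change was -0.52 (SE 0.083, edgeR adjusted p 0.00164), and CD103 negative replicate 3 was close to the CpG libraries. Sem1, the small lid subunit that the naming rule misses, had a log2 fold change of -0.42 (SE 0.089, edgeR adjusted p 0.00693).

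Of 13 tested regulators of proteasome gene transcription 6 rose and 0 fell, and 4 of 13 had a negative fitted change. Nlrc5, the activator of MHC class I genes, had 252 and 315 CPM against 114, 123 and 230 CPM (log2 fold change 1.25, edgeR adjusted p 8.82e-05), with CD103 negative replicate 3 near the lower CpG library. Irf1, an interferon-induced factor known to act on the shared promoter of Psmb9 and Tap1, had 315 and 285 CPM against 158, 171 and 191 CPM (log2 fold change 0.87, edgeR adjusted p 0.000212). Stat3, Stat2 and Irf8 were also called, by 0.80, 1.48 and 0.39. Nfe2l1, which encodes the factor that raises proteasome genes when degradation is blocked, had 140 and 150 CPM against 150, 139 and 135 CPM (log2 fold change 0.01, edgeR adjusted p 0.963). Nfe2l1 was added after its values were seen.

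Steps before and after the proteasome were mixed. Of 13 tested genes of ubiquitin supply and shuttles 3 fell and 0 rose: the shuttle genes Ubqln1 (-0.37, edgeR adjusted p 0.00951) and Ubqln2 (-0.35, edgeR adjusted p 0.0486), and Uba1, the gene of the main ubiquitin-activating enzyme (-0.34, edgeR adjusted p 0.0129). Of 5 genes for interferon-induced ubiquitin-like modifiers 1 rose, Uba7, the activating enzyme of ISG15 (0.88, edgeR adjusted p 0.0015). Of 7 cytosolic peptidases that trim or destroy peptides after the proteasome, Lap3 rose (1.21, edgeR adjusted p 0.000381) and Blmh fell (-0.71, edgeR adjusted p 0.00121). Of 9 genes of peptide transport and loading 3 rose, Tap1, Tap2 and Tapbpl (0.41, edgeR adjusted p 0.00535), and Canx fell (-0.36, edgeR adjusted p 0.0126). These lists sit beside backgrounds of 14.5% called higher and 11.8% called lower, and they were chosen with earlier results of these data known.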

How the data were processed

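RNA of 7 libraries of sorted CD8 dendritic cells was sequenced. The authors deposited raw counts per gene and library with gene lengths, as unnormalized whole numbers, per the file headers. CASAVA, Subread 1.4.6, featureCounts and mm10 are listed without roles, per the submitters' processing notes. Not given in the sources used here were the strand setting, the annotation and the treatment of multiply mapping reads. A whole-series table with 7 columns matching no sample label was not used.

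Identifiers were matched to RefSeq GRCm38.p6 symbols (25275 of 27179, 93%, and all but 0.533% of counts). Counts were filtered by filterByExpr and scaled by trimmed mean of M-values, and a quasi-likelihood model with group and date was fitted to all 7 libraries in edgeR 4.0.16 (R 4.3.3), with 3 residual degrees of freedom. The threshold was an adjusted p (Benjamini-Hochberg, over 10863 genes) under 0.05. SE is the log2 fold change divided by the square root of F. Because of the date term, CD103 negative replicates 1 and 2 are in effect the controls of CpG CD103 high, and replicate 3 that of CD103 low. RPKM used the deposited length. The script was tested on simulated data. Replicate files differed beyond sampling noise. Alternatives covered the date term, scaling, filter, threshold, DESeq2 1.42.0, limma 3.58.1 voom and each library left out.

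Named genes were the immunoproteasome genes and their counterparts, every called gene, the most abundant gene of other classes, and up to 3 called genes per related list. Others were named after their values were seen. Members and lists were chosen with earlier results of these data known.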

Additional observations from a re-analysis of the deposited data

How the results depend on the processing

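The single higher call, Psmb9, was made under all 17 alternatives for CpG CD103 high against CD103 negative. The 6 lower calls were not as stable: there were 0 without the date term, 1 with the 2012 libraries alone, 2 without a low-count filter, 0 with DESeq2 and 0 at an adjusted p under 0.01. The share of all genes tested that were called lower fell too. It was 11.8% in the main fit and 6.92%, 9.5%, 5.78%, 5.6% and 5.04% in these settings, in the same order. Leaving out 1 library gave from 0 (without CD103 negative replicate 2) to 8 (without CD103 negative replicate 3), with 4 and 2 without CpG CD103 high replicates 1 and 2, 2 without CD103 negative replicate 1, and 1 without either CD103 low library. Of all genes tested, from 6.95% (without CD103 negative replicate 1) to 12.3% (without CD103 negative replicate 3) were then called lower. The cause was not tested. Psmd14 kept its lower call under 12 of 17 alternatives.

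The labels do not say whether same-numbered replicates of different groups were paired. The correlation of same-numbered deviations was 0.168 for CpG CD103 high with CD103 negative, which share a date. It was 0.00245 for CD103 low with CD103 negative and -0.00641 for CpG CD103 high with CD103 low. These values use only replicates 1 and 2 of each group, so they cannot decide whether replicates were paired. A replicate block in place of the date term gave 1 higher and 6 lower for CpG CD103 high against CD103 negative. In that block fit, which compares across dates, 12 of 44 genes were lower in CD103 low than in CD103 negative, where 4.43% of all genes tested were, and Psmb6 reversed to -0.47. CpG CD103 high against CD103 low gave 6 higher and 1 lower of 44 with the replicate block, where 8.16% and 8.18% of all genes tested were called, and 1 lower without the date term, where 4.46% were. Psmb9 was among the 6, at 0.45 (edgeR adjusted p 0.00527). Leaving out a library, the difference in the log2 ratio of Psmb8 to Psmb5 ran from -0.0498 (without CpG CD103 high replicate 2) to 0.218 (without CpG CD103 high replicate 1), and it was -0.00867 without CD103 negative replicate 2. Scaling to the total count moved the median log2 fold change of all genes for CD103 low from 0.0125 to -0.0959. The precision is limited by 3 residual degrees of freedom and 2 or 3 libraries a group.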
